A study of Mus musculus with 6 samples.

Results

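The genes described here are 50 genes of the lysosome, listed by name: 12 cathepsins, 14 subunits of the lysosomal proton pump (V-ATPase), 14 other hydrolases, 7 cofactors and membrane proteins, and 3 transcription factors that regulate such genes. All 50 were found by gene name among the 49315 genes of the mouse count table. Lungs of male C57BL/6 mice (C57BL/6J in the study's methods) that had received saline (sham-treated) or bleomycin (BLM-treated, a drug that injures the lung and is followed by fibrosis) by oropharyngeal instillation were harvested 21 days later and dissociated into single cells. Cells of each treatment were left unsorted or sorted by flow cytometry, with the dye 7-AAD marking dead cells, into Lamp1-depleted and Lamp1-enriched fractions by Lamp1 protein on the cell surface. The study proposes surface Lamp1 as a marker of senescent cells, so the comparisons ask how RNA of the lysosome follows the sort and the injury. The 6 libraries, 1 per condition, comprise these 3 kinds of cells (unsorted, Lamp1-depleted, Lamp1-enriched) from sham-treated and from BLM-treated lungs. No transgene or deletion was carried by any group, 2 to 3 lungs of a group were pooled per tube, and the age of these animals and their BLM dose were not given unambiguously in the sources used here.

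The lysosome is an acidic compartment in which proteins, lipids and sugar chains are broken down. V-ATPase pumps protons into it with a membrane part (V0) and an ATP-splitting part (V1), and its acid activates the cathepsins, which are proteases, and the hydrolases that cut glycans and lipids. Tfeb, Tfe3 and Mitf are related transcription factors that can bind the letters CACGTG near the starts of many of these genes. In the lung, macrophages are the cells best known for large amounts of lysosomal enzymes.

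The letters CACGTG were searched in the RefSeq promoter windows of the GRCm38.p6 build, each reaching from 250 bases before to 50 bases after a start. The letters read alike on both strands. A window was found for 40 of the 50 genes and not for Ctsb, Ctse, Ctsh, Atp6v0d2, Atp6v1b2, Atp6v1c1, Atp6v1g1, Atp6v1h, Asah1 or Npc1. CACGTG was present in 11 of the 40 (27.5%), against 8.09% of 27025 genes with a window. The 11 were 4 of 9 cathepsins, 3 of 9 V-ATPase genes, 3 of 13 hydrolases, 1 of 6 cofactors and membrane proteins, and none of the 3 regulators. The stretches that follow show the match of 1 or more genes of each role that had any. They are shown because they hold the letters the regulators are known to read. Each runs 5′ to 3′ in the direction of transcription, with CACGTG in capitals.
Mcoln1, chr8:3500433-3500494, plus strand: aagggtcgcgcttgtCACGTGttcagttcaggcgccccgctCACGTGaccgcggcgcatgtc
Atp6v0b, chr4:117887330-117887380, minus strand: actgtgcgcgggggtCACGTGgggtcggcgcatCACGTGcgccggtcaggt
Atp6v1a, chr16:44139370-44139405, minus strand: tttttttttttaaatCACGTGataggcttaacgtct
Ctsd, chr7:142387905-142387940, minus strand: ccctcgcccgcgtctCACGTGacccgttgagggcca
Ctsf, chr19:4855071-4855106, plus strand: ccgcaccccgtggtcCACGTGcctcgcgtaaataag
Ctsa, chr2:164833746-164833772, plus strand: caatgagcaaactgtCACGTGatgcag
Glb1, chr9:114401015-114401050, plus strand: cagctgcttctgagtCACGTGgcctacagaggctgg
Gaa, chr11:119267808-119267843, plus strand: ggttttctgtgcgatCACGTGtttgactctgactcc

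The stretches of Mcoln1 and Atp6v0b each held 2 copies, 71 and 45 bases and 36 and 18 bases before the start. The single stretches shown began 131 bases before the start in Atp6v1a, 98 in Ctsd, 79 in Ctsf, 12 in Ctsa, 48 in Glb1 and 140 in Gaa. Ctsl, Gla (at 2 places) and Atp6v0d1 also held the letters, and so did a second place in Ctsa and in Ctsd. Genes with and without the letters are set against the data after the comparisons. A match is a description of these windows and not a site of binding.

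Libraries held 30236120 to 52918696 counted reads. In BLM-treated Lamp1-depleted cells 38.4% of reads fell on 1 gene, Gm26917, against at most 7.10% elsewhere, which left 18636423 other reads. Levels are given as CPM, counts scaled to 1 common library size after TMM scaling, a correction for composition computed over the 6 libraries. Ratios between libraries carry a 95% interval that covers counting error only and no difference between mice, so that a ratio compares libraries. A gene counted as higher or lower at 2-fold or more, provided that the higher of both libraries held 10 reads. All 50 genes had at least 10 reads in every library, and 49 had at least 50. RNA of Lamp1 itself followed the sort: it was at 319, 146 and 491 CPM in sham-treated unsorted, Lamp1-depleted and Lamp1-enriched cells, respectively, and at 501, 111 and 378 in the BLM-treated cells.

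In unsorted cells, lysosomal RNA was much higher after BLM. Of the 50 genes, 33 were at least 2-fold higher and 0 lower, where 13.9% of 22772 genes tested were higher and 16.0% lower. Among genes with at least 50 reads the share of higher genes was 12.7%. The median log2 ratio, BLM over sham, was 1.47 for the 50 genes and -0.07 over all genes tested, and 48 of the 50 ratios were above 0. Together the 50 genes took 0.429% of the reads outside Gm26917 in sham-treated and 2.24% in BLM-treated unsorted cells. Cathepsins took 0.118% and 0.914% of those reads, V-ATPase 0.0927% and 0.239%, and the hydrolases 0.0828% and 0.240%. In bulk RNA, more cells of a type and more RNA per cell cannot be told apart.

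Fewer genes passed 2-fold in the sorted cells. In the Lamp1-enriched fraction 3 of the 50 genes were at least 2-fold higher after BLM and 1 was lower (10.2% and 7.81% of all genes tested), with a median log2 ratio of 0.23 where that of all genes was -0.000265. In the Lamp1-depleted fraction 4 were higher and 5 lower (13.7% and 22.3%), with a median of -0.08 against -0.21 over all genes. The 28 genes that were at least 2-fold higher in unsorted cells and in neither fraction compare with 5.62% of all genes having at least 10 reads in 1 or both libraries of each comparison. For 49 of the 50 genes the ratio was larger in unsorted cells than in both fractions, against 33.8% of all genes, the exception being Mcoln1, the lysosomal calcium channel.

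Treatment was also tested over the fractions, with edgeR's quasi-likelihood test on the 6 libraries and a term for fraction, a test added after the data were seen. It called 4 of the 50 genes higher after BLM and 0 lower, where 2.85% of 21906 genes were called higher and 1.73% lower. At an unadjusted p under 0.05, 18 were higher and 1 lower. The share of all genes under that threshold was not counted, so these 18 cannot be judged against it. The 4 were Ctsk, with a log2 fold change of 3.46 (edgeR adjusted p = 0.0008), Atp6v0d2 with 2.78 (0.00143), Ctsd with 2.05 (0.034) and Ctsl with 1.57 (0.0408). Log2 ratios of all 4 were above 0 in 3 of 3 fractions. In Lamp1-enriched cells those of Ctsd (0.93) and Ctsl (0.45) stayed below 2-fold. The test had 2 residual degrees of freedom and takes the ratio as alike in every fraction, and for Ctss, whose ratios ran from -0.17 to 4.57, it gave 2.47 (edgeR adjusted p = 0.0949). The 3 libraries of a treatment are fractions and not replicates, and unsorted cells include both sorted kinds. The p-values of this test therefore do not measure variation between mice. In the 4 sorted libraries alone 4 were called higher, Ctss in place of Ctsl, and Ctse lower, against 2.41% and 1.56% of all genes.

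**Figure D1:**
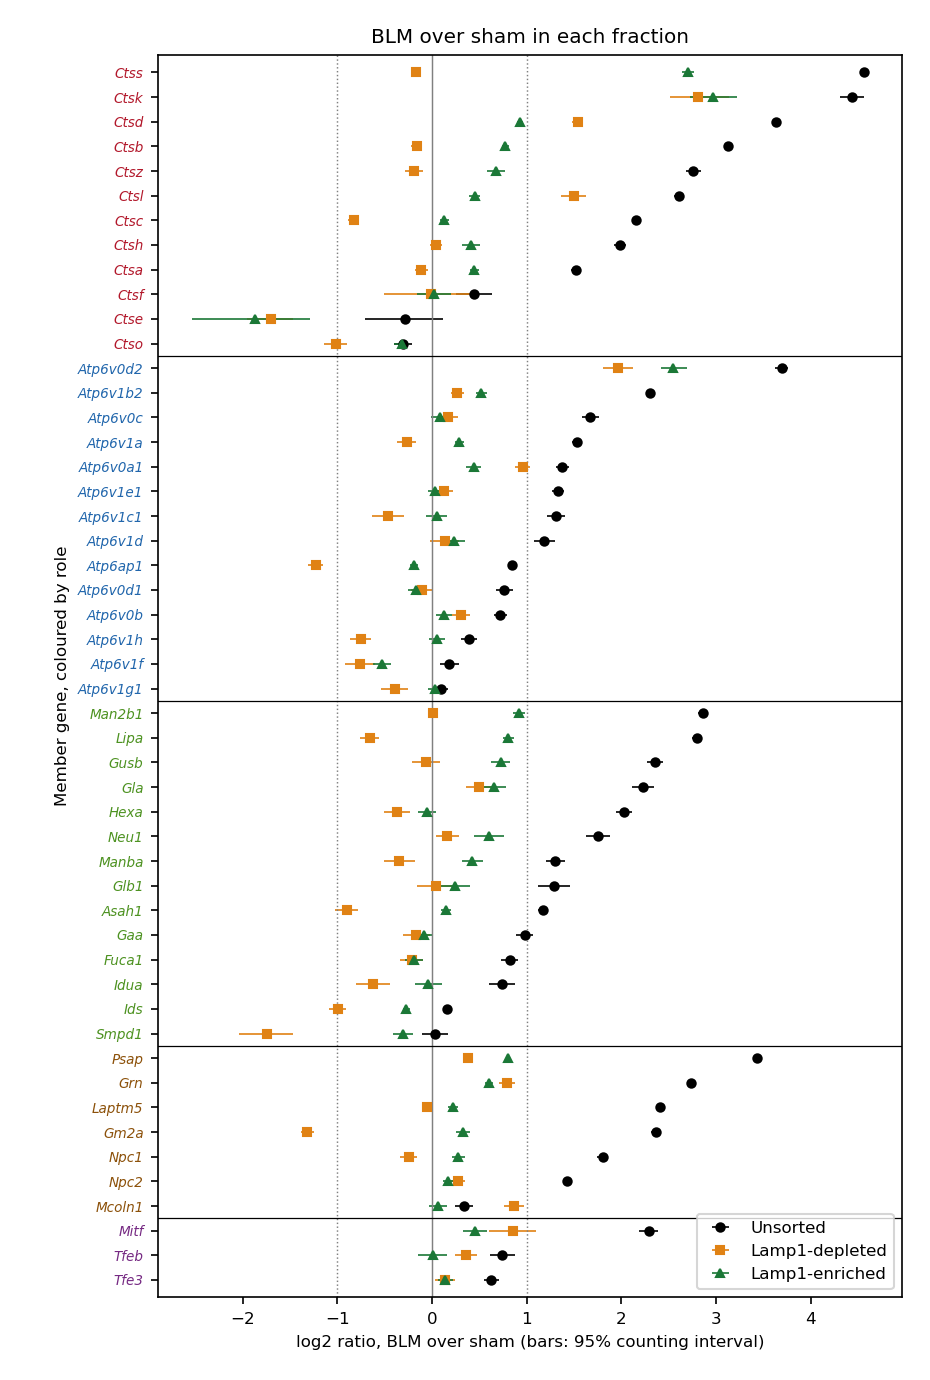
BLM over sham log2 ratio (horizontal axis) of each of the 50 genes (vertical axis, grouped and coloured by role) in unsorted (black circles), Lamp1-depleted (orange squares) and Lamp1-enriched cells (green triangles), 1 library per condition, with 95% counting intervals and dotted lines at 2-fold. The black circles lie past the 2-fold line for 33 genes, while 3 triangles and 4 squares do.

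Among the cathepsins, 9 of 12 were at least 2-fold higher in BLM-treated unsorted cells and none was lower, with a median log2 ratio of 2.38. Ctss, a cysteine protease that trims the invariant chain of MHC class II in antigen-presenting cells, was at 99.7, 305 and 43.8 CPM in sham-treated unsorted, Lamp1-depleted and Lamp1-enriched cells. After BLM it was at 2359, 271 and 285 in the same order. Its BLM over sham log2 ratio was 4.57 (interval 4.52 to 4.61) in unsorted, 2.70 in Lamp1-enriched and -0.17 in Lamp1-depleted cells. The unsorted BLM library thus stood above every other library, and the large Lamp1-enriched ratio started from the lowest of the 6 levels.

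Ctsk, the collagen-degrading cathepsin best known from osteoclasts, was at 10.6, 2.501 and 3.17 CPM in the sham-treated libraries and at 228, 17.6 and 24.8 in the BLM-treated ones. It was the only cathepsin past 2-fold in all 3 fractions, with log2 ratios of 4.43 in unsorted, 2.96 (2.72 to 3.23) in Lamp1-enriched and 2.81 (2.51 to 3.13) in Lamp1-depleted cells. Ctsk and Atp6v0d2 were the 2 genes of the 50 with this pattern, which 2.39% of all genes had. The 3 BLM levels of Ctsk lay above all 3 sham levels. Per kilobase of exon, Ctsk stood at 0.608 times the level of Ctsl in sham-treated unsorted cells (0.553 to 0.667) and at 2.15 times in BLM-treated unsorted cells (2.10 to 2.21).

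Ctsd, the main aspartic protease of the lysosome, was at 220.2, 98.5 and 236 CPM in the sham-treated and at 2733, 286 and 449.7 in the BLM-treated libraries, again in the order unsorted, Lamp1-depleted, Lamp1-enriched. Its BLM over sham log2 ratio was 3.63 in unsorted and 1.54 in Lamp1-depleted cells. A gene model on the same strand, Gm49369, covers 34.4% of its exon bases, so counts of Ctsd depend on how shared reads were assigned. Ctsb, a cysteine protease, was at 141, 181 and 162 and then at 1226, 161 and 277, a log2 ratio of 3.12 in unsorted cells. Ctsl, which is secreted as well as lysosomal, was at 74.6, 17.4 and 84.2 and then at 455, 49.1 and 115. Its log2 ratio was 2.61 in unsorted and 1.49 in Lamp1-depleted cells. An antisense gene model, Gm47123, covers 26.8% of the exon bases of Ctsl.

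Ctsz, Ctsc, Ctsh and Ctsa were also at least 2-fold higher in BLM-treated unsorted cells. Ctsz, a carboxypeptidase, was at 32.5, 72.2 and 31.4 CPM before and 220.5, 63.3 and 50.1 after BLM. Ctsc, which activates the serine proteases of granules, was at 163, 269 and 133 before and 728, 152 and 145 after. Their log2 ratios were 2.76 and 2.16 in unsorted cells, where in the sorted cells Ctsz had 0.67 in the Lamp1-enriched and Ctsc -0.83 in the Lamp1-depleted fraction. Ctsh, an aminopeptidase, had a log2 ratio of 1.98 and Ctsa, the protective protein of neuraminidase, 1.52. The remaining Ctse, Ctsf and Ctso did not share them: their log2 ratios in unsorted cells were -0.29, 0.44 and -0.31.

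The proton pump differed less than the cathepsins between unsorted cells, with 8 of 14 genes at least 2-fold higher, none lower and a median log2 ratio of 1.25. Atp6v0d2, a form of the V0 d subunit found in osteoclasts and macrophages, was at 39.5, 11.1 and 10.9 CPM in sham-treated unsorted, Lamp1-depleted and Lamp1-enriched cells, against 510.2, 43.4 and 63.6 after BLM. Atp6v0d1, the form of the same subunit used in most cells, was at 35.3, 42.5 and 46.4 and then at 59.9, 39.5 and 41.3. The 2 paralogs therefore differed by log2 ratios of 3.69 (3.62 to 3.76) and 0.76 (0.67 to 0.85) in the same pair of unsorted libraries. Per kilobase, the ratio of Atp6v0d2 to Atp6v0d1 was 0.738 (0.691 to 0.788) in sham-treated and 5.63 (5.39 to 5.87) in BLM-treated unsorted cells. In the sorted cells it was 0.173 and 0.155 in sham-treated and 0.726 and 1.02 in BLM-treated Lamp1-depleted and Lamp1-enriched cells. The log2 ratio of Atp6v0d2 was 2.55 in the Lamp1-enriched and 1.96 in the Lamp1-depleted fraction, while Atp6v0d1 was at -0.17 and -0.11.

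Of the ATP-splitting V1 part, Atp6v1b2, the B subunit of most tissues, was at 80.5, 104 and 76.8 CPM before and at 398, 126 and 110.1 after BLM, a log2 ratio of 2.31 in unsorted cells. The catalytic subunit Atp6v1a had a log2 ratio of 1.53, Atp6v1e1 1.33, Atp6v1c1 1.31 and Atp6v1d 1.19. In V0, the proteolipid Atp6v0c reached 1.67 and the a1 subunit Atp6v0a1 1.37. The 5 other genes besides Atp6v0d1 lay between 0.10 and 0.85, namely Atp6v1g1, Atp6v1f, Atp6v1h, Atp6v0b and the accessory subunit Atp6ap1. Subunits of 1 complex thus differed up to the 3.69 of Atp6v0d2 in the same pair of libraries.

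Of the hydrolases, 9 of 14 were at least 2-fold higher in BLM-treated unsorted cells, none was lower, and the median log2 ratio was 1.29. Man2b1, an alpha-mannosidase, was at 78.7, 192 and 63.3 CPM in sham-treated unsorted, Lamp1-depleted and Lamp1-enriched cells, against 573, 193 and 119.6 after BLM. Lipa, the acid lipase that frees cholesterol from its esters, was at 84.9, 84.7 and 79.5 and then at 589, 53.6 and 139. Gusb, beta-glucuronidase, was at 28.0, 27.2 and 28.0 and then at 143, 26.1 and 46.3. In all 3 the BLM-treated unsorted library stood apart, with log2 ratios of 2.86, 2.79 and 2.35.

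Gla, the alpha-galactosidase deficient in Fabry disease, was at 14.7, 22.3 and 16.1 before and at 69.0, 31.5 and 25.2 after BLM. Hexa, the alpha subunit of hexosaminidase, was at 32.6, 36.3 and 35.2 before and at 133, 28.2 and 33.9 after, so that its 3 sham-treated and both sorted BLM-treated libraries lay between 28.2 and 36.3. Neu1, a sialidase, had a log2 ratio of 1.75 in unsorted cells, Manba 1.30 and Asah1, acid ceramidase, 1.17. Ratios of Gaa, Fuca1 and Idua were between 0.74 and 0.98, and those of Ids and of Smpd1, acid sphingomyelinase, were 0.16 and 0.03.

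Glb1 encodes the beta-galactosidase behind the histochemical stain for senescent cells. Its level was 8.84 CPM in sham-treated unsorted, 14.3 in Lamp1-depleted and 13.2 in Lamp1-enriched cells, and after BLM 21.5, 14.7 and 15.7 in that order. The BLM-treated unsorted library was the highest and the sham-treated unsorted one the lowest, and the 4 sorted libraries lay between 13.2 and 15.7. The BLM over sham log2 ratio was 1.28 (1.12 to 1.46) in unsorted, 0.24 (0.09 to 0.40) in Lamp1-enriched and 0.04 (-0.16 to 0.24) in Lamp1-depleted cells. Lamp1-enriched over Lamp1-depleted it was -0.11 (-0.27 to 0.05) in sham-treated and 0.09 (-0.09 to 0.29) in BLM-treated lungs, and the counting interval included 0 in both. A gene model on the same strand, Tmppe, shares 5.49% of the exon bases of Glb1.

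Among the cofactors and membrane proteins, 6 of 7 were at least 2-fold higher in BLM-treated unsorted cells, with a median log2 ratio of 2.37. Psap, the precursor of the saposins that present lipids to hydrolases, was the most abundant of the 50 genes per kilobase in 6 of 6 libraries. Its level was 489, 679 and 533 CPM in the sham-treated libraries and 5278, 882 and 931 in the BLM-treated ones, a log2 ratio of 3.43 in unsorted cells. Grn, progranulin, was at 103, 61.7 and 159 and then at 687, 107 and 241, a log2 ratio of 2.73. Both differed far more between the unsorted cells than in either fraction, where the ratios were 0.38 to 0.81.

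Laptm5, a lysosomal membrane protein of blood cells, was at 160.0, 759 and 109 CPM before and at 851, 732 and 127 after BLM, so that the Lamp1-depleted levels were nearly alike. Gm2a, the activator protein for ganglioside breakdown, was at 63.1, 256 and 59.2 and then at 325, 103 and 74.2. It was the gene whose treatment ratio took opposite directions past 2-fold, 2.37 in unsorted and -1.32 in Lamp1-depleted cells. The cholesterol transporters Npc1 and Npc2 had log2 ratios of 1.80 and 1.43 in unsorted cells, and Mcoln1 0.34.

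The 3 regulators differed from each other. Mitf was at 20.4, 6.58 and 18.1 CPM in sham-treated unsorted, Lamp1-depleted and Lamp1-enriched cells, against 99.3, 11.9 and 24.9 after BLM, a log2 ratio of 2.29 (2.19 to 2.39) in unsorted cells. Tfeb was at 16.4, 34.1 and 13.8 and then at 27.4, 43.7 and 13.9, and Tfe3 at 48.2, 46.0 and 49.7 and then at 74.2, 50.6 and 54.8. Their log2 ratios in unsorted cells were 0.74 (0.61 to 0.88) and 0.62 (0.54 to 0.70), below 2-fold. Per kilobase, Mitf stood at 1.14 times the level of Tfeb in sham-treated unsorted cells and at 3.32 times (3.10 to 3.55) in BLM-treated ones. Of the 6 libraries, Mitf and Tfe3 were highest in BLM-treated unsorted cells and Tfeb in BLM-treated Lamp1-depleted cells.

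**Figure D2:**
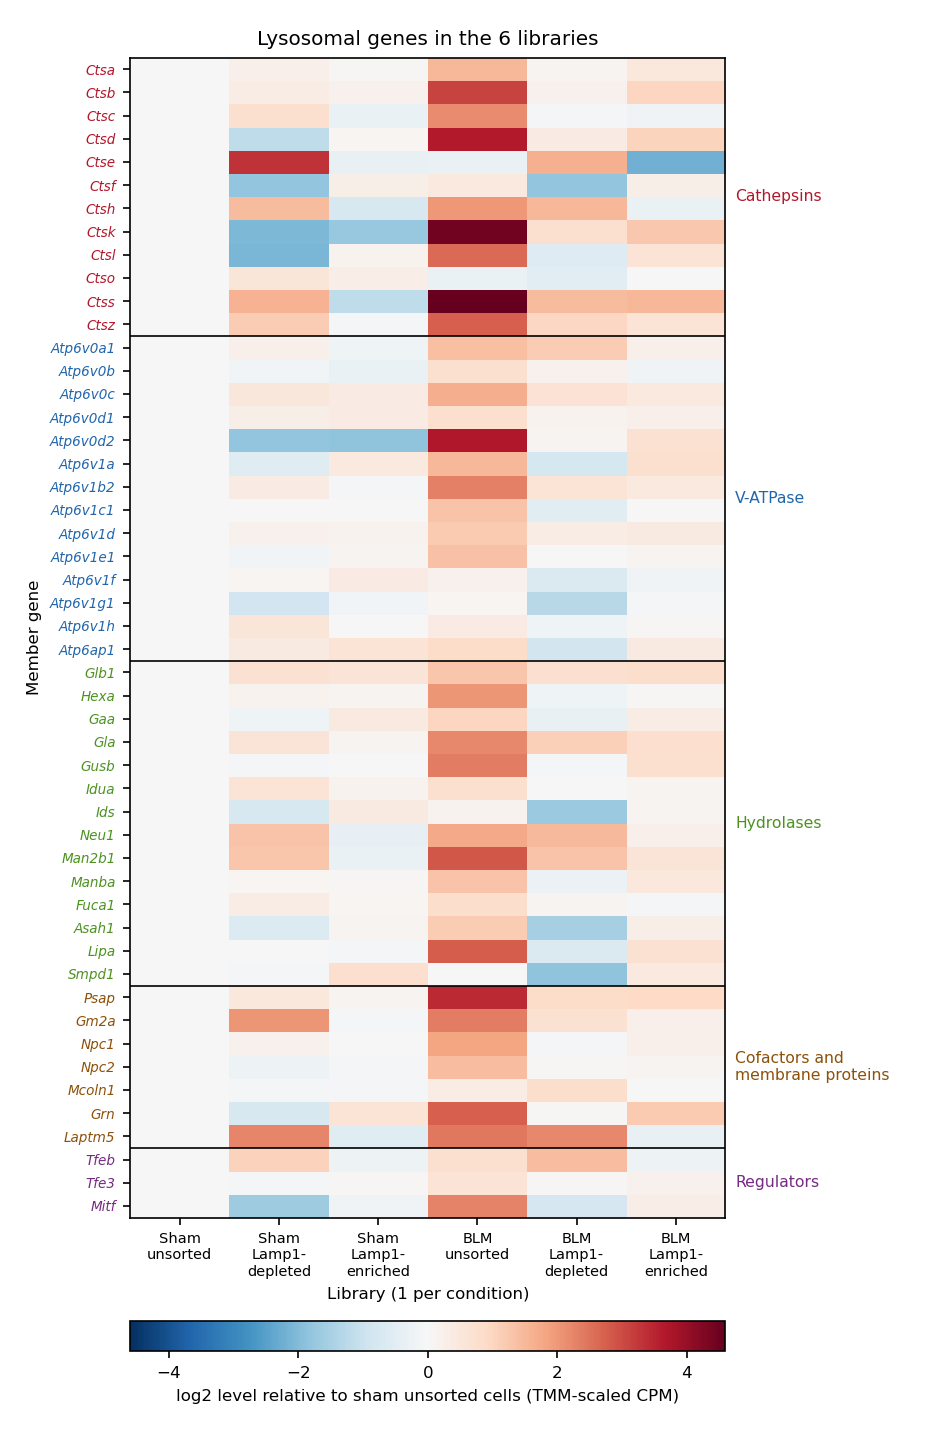
Heat map of the 50 genes (rows, grouped by role) in the 6 libraries (columns), coloured by the log2 of the level relative to sham-treated unsorted cells, which are 0 by construction. The column of BLM-treated unsorted cells is red for most rows, up to 4.57 for Ctss, where 33 genes are at least 2-fold above sham-treated unsorted cells. In both Lamp1-depleted columns 15 (sham-treated) and 14 (BLM-treated) genes differ by 2-fold or more in either direction, and in the Lamp1-enriched columns 3 and 5.

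BLM-treated unsorted cells also exceeded their own sorted fractions. Of the 50 genes, 23 were at least 2-fold above both the Lamp1-depleted and the Lamp1-enriched fraction of the BLM-treated lungs, against 9.34% of all genes tested. In sham-treated lungs 2 genes were, Ctsk and Atp6v0d2, against 7.68%. Relative to the higher fraction, Ctsk was 9.19-fold higher in BLM-treated unsorted cells, Ctss 8.27-fold, Atp6v0d2 8.02-fold, Ctsd 6.08-fold, Psap 5.67-fold and Ctsb 4.43-fold. The highest of the 6 libraries was BLM-treated unsorted cells for 42 of the 50 genes and for 14.9% of all genes. For the 23 genes, the levels of the 2 BLM-treated fractions did not bracket the unsorted level. Ratios of sorted libraries therefore describe only the cells that the fractions held. Whether some cells were missing from both fractions was not tested.

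Markers of macrophages were also far higher in BLM-treated unsorted cells. For a list of 8 markers of alveolar macrophages found in the table, among them Marco, Chil3 and Plet1, the summed level was 483 CPM in sham-treated and 2908 in BLM-treated unsorted cells, and 120.4 to 357 in the 4 sorted libraries. For 9 markers of macrophages described in scars, led by Spp1, Gpnmb and Mmp12, it was 97.5 in sham-treated and 4754 in BLM-treated unsorted cells, 80.3 and 378 in the Lamp1-depleted and 76.7 and 637 in the Lamp1-enriched fraction. For 11 markers of monocytes and interstitial macrophages it was 234 and 1506 in unsorted cells and 110.0 to 445 in the sorted libraries. BLM over sham in unsorted cells, 6 of 8, 9 of 9 and 10 of 11 of these markers were at least 2-fold higher. Of the 8 alveolar macrophage markers, 1 was at least 2-fold lower. In the fractions the lists differed. Of the scar markers, 8 of 9 were at least 2-fold higher after BLM in Lamp1-depleted and 9 of 9 in Lamp1-enriched cells. Their median log2 ratios were 2.48 and 2.82. Of the 8 alveolar macrophage markers, 2 were higher and 2 lower in Lamp1-depleted cells, and 6 and 2 in Lamp1-enriched cells (medians 0.72 and 1.72). Of the 11 monocyte and interstitial macrophage markers, 4 were higher and 1 lower, and then 6 and 1 (medians 0.27 and 1.07). Of the 50 lysosomal genes, 4 were higher and 5 lower, and then 3 and 1. No marker of the first and last list was at 3 reads or fewer in any library, and of the scar list 1 was, in 2 sham-treated libraries. The part of macrophages in the levels of the lysosomal genes was not tested.

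**Figure D3:**
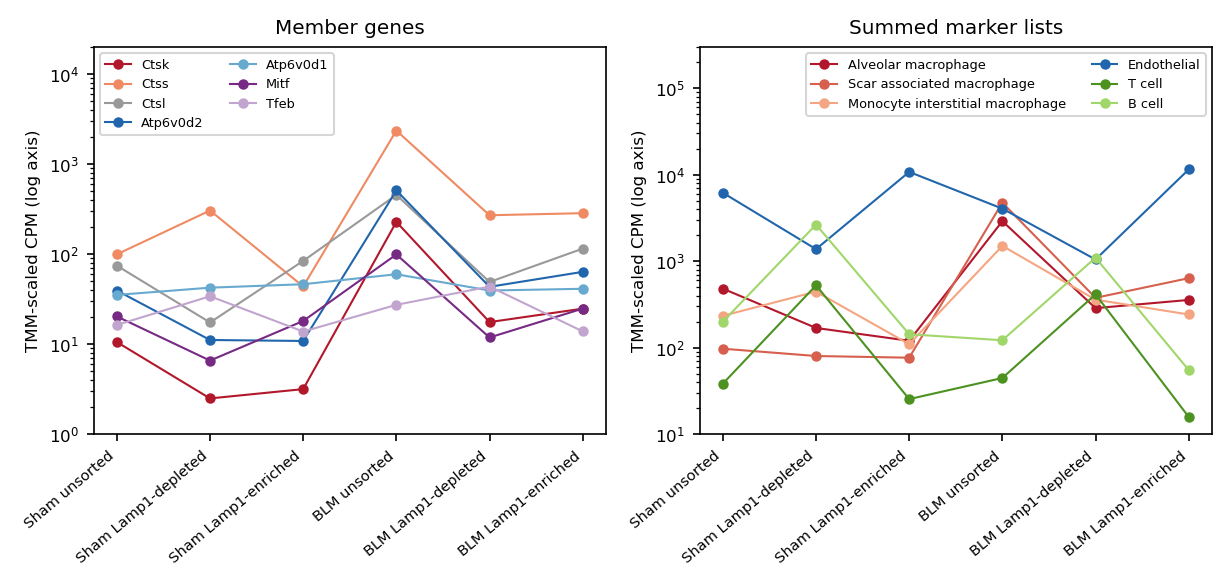
Left, levels of Ctsk, Ctss, Ctsl, Atp6v0d2, Atp6v0d1, Mitf and Tfeb in the 6 libraries (CPM after TMM scaling, log axis, 1 library per point). Right, summed levels of 3 macrophage marker lists and of endothelial, T cell and B cell markers on the same scale. Ctsk, Ctss, Atp6v0d2 and the macrophage lists peak in BLM-treated unsorted cells, whereas Atp6v0d1 stays between 35.3 and 59.9.

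Sorting on surface Lamp1 was compared next, as Lamp1-enriched over Lamp1-depleted cells. The 50 genes did not follow the sort as a body. In sham-treated lungs 6 were at least 2-fold higher and 10 lower in the Lamp1-enriched cells, against 27.5% and 25.2% of all genes tested, with a median log2 ratio of -0.07 against -0.01 over all genes. In BLM-treated lungs 11 were higher and 5 lower, against 34.4% and 22.6%, with a median of 0.20, where the median over all genes was 0.29. With total counts in place of TMM scaling, which lifts every BLM ratio by 0.56, 21 were higher and 4 lower in BLM-treated lungs. Both treatments agreed past 2-fold for 5 genes that were higher (22.1% of all genes) and 5 that were lower (15.4%).

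For the sort, edgeR's quasi-likelihood test, fitted to the 4 sorted libraries with a term for treatment and adjusted by Benjamini-Hochberg over 20593 genes, called 9 of the 50 genes higher and 9 lower. Of all genes tested, 21.5% were called higher and 19.2% lower. With 1 residual degree of freedom, edgeR gave the prior infinite weight, so that the spread of a gene came from the trend over all genes and not from how far its own sham-treated and BLM-treated pairs differed. The p-values do not measure variation between mice. With total counts in place of TMM scaling 2 higher and 2 lower calls were made. The BLM-treated Lamp1-depleted library carried the excess of Gm26917 reads, and without it the sort is described by the sham-treated ratios alone.

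Among the cathepsins the test called 2 higher and 4 lower. Ctsl was higher in Lamp1-enriched cells by a log2 ratio of 2.27 in sham-treated and 1.23 in BLM-treated lungs (edgeR adjusted p = 1.68e-05). Ctsf, a cysteine protease with a long propeptide, was at 8.73, 2.48 and 10.5 CPM in sham-treated unsorted, Lamp1-depleted and Lamp1-enriched cells, against 11.9, 2.46 and 10.7 after BLM. Its log2 ratios of 2.08 and 2.11 were nearly alike in both pairs (edgeR adjusted p = 7.32e-05), and it was the cathepsin least touched by treatment in the sorted cells. Ctsd had 1.26 and 0.65 and missed the threshold (edgeR adjusted p = 0.056).

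Ctse, an aspartic protease of endosomes found in immune and epithelial cells, was the strongest member in the other direction. It was at 2.58, 25.8 and 2.04 CPM in the sham-treated and 2.10, 7.91 and 0.550 in the BLM-treated libraries, so that both Lamp1-depleted libraries stood above all others. Its log2 ratios were -3.65 (-3.98 to -3.36) and -3.82 (-4.46 to -3.28), with an edgeR adjusted p of 5.23e-15. Ctsh was at 53.04, 147 and 32.0 and then at 209.9, 151 and 42.6, with log2 ratios of -2.20 and -1.83 (edgeR adjusted p = 3.58e-08). Ctss was lower by -2.80 in sham-treated lungs and level at 0.08 in BLM-treated ones. Its edgeR adjusted p of 0.00175 therefore rested on the sham-treated pair, and the difference between treatments was not tested. Ctsz was lower by -1.20 and -0.34 (edgeR adjusted p = 0.0305).

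The pump followed the sort little. In sham-treated lungs none of the 14 genes reached 2-fold in either direction, and in BLM-treated lungs 3 were higher, Atp6v1a, Atp6ap1 and Atp6v1g1. The test called Atp6v1a, at log2 ratios of 0.99 and 1.55 (edgeR adjusted p = 0.00305), and Atp6v1g1, a subunit of the stalk, at 0.76 and 1.19 (edgeR adjusted p = 0.0282). None was called lower. Atp6v0d2 stood at -0.04 and 0.55 and Atp6v0d1 at 0.13 and 0.06, so that neither form of the d subunit followed surface Lamp1 past 2-fold. Pump genes outside the 14 differed. Of 9 tested, 4 were at least 2-fold higher and 0 lower in sham-treated lungs, and 3 and 1 in BLM-treated lungs.

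**Figure D4:**
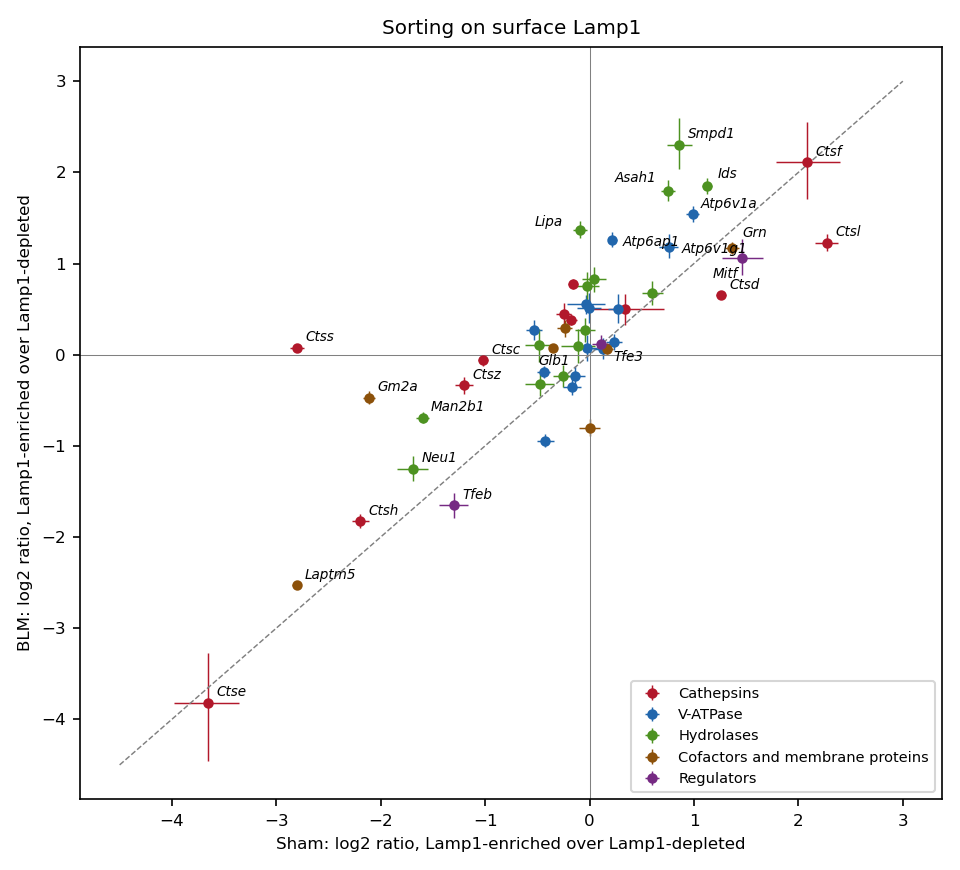
Lamp1-enriched over Lamp1-depleted log2 ratio in sham-treated (horizontal axis) and BLM-treated lungs (vertical axis) for the 50 genes, coloured by role, with 95% counting intervals and a dashed line of equal ratios. Ctse and Laptm5 lie far down and Ctsf far up in both, Ctss lies at -2.80 in sham-treated and 0.08 in BLM-treated lungs, and Glb1 and Tfe3 lie near 0 in both.

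Of the hydrolases, 3 were called higher and 2 lower in Lamp1-enriched cells. Ids, the iduronate sulfatase that acts on heparan and dermatan sulfate, was higher by log2 ratios of 1.13 and 1.85, Asah1 by 0.75 and 1.80, and Smpd1 by 0.86 and 2.30, with edgeR adjusted p of 0.000618, 0.0026 and 0.000329. Smpd1 was at 19.6, 18.3 and 33.2 CPM in the sham-treated and at 20.0, 5.44 and 26.9 in the BLM-treated libraries, so its larger BLM ratio came with a low level in the BLM-treated Lamp1-depleted library. Ids and Asah1 were also lowest there of the 6 libraries. Neu1 was lower by -1.69 and -1.25 (edgeR adjusted p = 5.93e-05) and Man2b1 by -1.60 and -0.69 (edgeR adjusted p = 0.00234). For Glb1 the adjusted p was 0.853 in the same edgeR test, with a log2 ratio of -0.10 over both treatments.

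Of the cofactors and membrane proteins, Grn was called higher, by 1.36 and 1.17 (edgeR adjusted p = 0.00393). Laptm5 was lower by -2.80 and -2.53 (edgeR adjusted p = 7.49e-10), and Gm2a by -2.11 in sham-treated and -0.47 in BLM-treated lungs (edgeR adjusted p = 0.000681). Psap, Npc1, Npc2 and Mcoln1 were not called, and their log2 ratios lay between -0.80 and 0.29.

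The related factors Tfeb and Mitf went opposite ways in the sort. Tfeb was lower in Lamp1-enriched cells by -1.30 (-1.44 to -1.17) and -1.65 (-1.79 to -1.51), and Mitf was higher by 1.46 (1.27 to 1.66) and 1.06 (0.87 to 1.27). Their edgeR adjusted p was 5.35e-05 and 0.00652. Per kilobase, Mitf stood at 0.177 times the level of Tfeb in sham-treated Lamp1-depleted cells and at 1.20 times in Lamp1-enriched cells, and in BLM-treated lungs at 0.249 and 1.64 times. Tfe3 stood at 0.11 and 0.12 and was not called (edgeR adjusted p = 0.974).

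Markers of several cell types moved with the sort as well. In sham-treated and BLM-treated lungs alike, all 10 endothelial markers were at least 2-fold higher on the Lamp1-enriched side. Their summed level was 1381 CPM in sham-treated Lamp1-depleted and 10790.1 in Lamp1-enriched cells, and 1048 and 11519.5 after BLM. All 8 T cell and all 5 B cell markers were at least 2-fold lower in both treatments, with T cell sums of 527 and 25.5 and then 414 and 15.9, and B cell sums of 2655 and 143 and then 1099 and 55.3. None of the endothelial, T cell and B cell markers was at 3 reads or fewer in any library. Also higher on the Lamp1-enriched side, in sham-treated and BLM-treated lungs, were 6 and 6 of 6 platelet markers, 6 and 7 of 8 fibroblast, 6 and 7 of 7 smooth muscle and pericyte and 7 and 7 of 8 alveolar epithelial markers. Of airway epithelial markers tested, 4 of 4 were higher in sham-treated and 1 of 5 in BLM-treated lungs, and 0 lower. On the Lamp1-depleted side stood 5 and 5 of 5 NK cell markers. Of neutrophil markers tested, 1 of 5 was lower in sham-treated and 5 of 6 in BLM-treated Lamp1-enriched cells, and 0 higher. Neutrophil sums in Lamp1-depleted and Lamp1-enriched cells were 45.1 and 26.9 CPM in sham-treated and 320 and 55.8 in BLM-treated lungs. Of 7 dendritic cell markers, 5 and 4 were lower in Lamp1-enriched cells and 2 and 2 higher. Their sums in Lamp1-depleted and Lamp1-enriched cells were 564 and 262 CPM in sham-treated and 221 and 222 in BLM-treated lungs. Of 11 monocyte and interstitial macrophage markers, 5 and 3 were lower and 0 and 1 higher, where 25.2% and 22.6% of all genes were lower. Of 8 alveolar macrophage markers, 2 and 0 were lower and 1 and 2 higher, and of 9 scar macrophage markers 3 and 2 lower and 2 and 1 higher. Markers of many cell types thus differed between the fractions in which Laptm5, Ctse, Ctsh and Tfeb were lower and Ctsl, Ctsf, Grn and Mitf higher on the Lamp1-enriched side. The part of these cell types in the sorting ratios was not tested.

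Other genes of the lysosome, a list of 66 that holds none of the 50, were then counted. In unsorted cells 30 of the 63 tested were at least 2-fold higher after BLM and 4 lower, with a median log2 ratio of 0.93, beside the 13.9% and 16.0% of all genes given before. In Lamp1-enriched cells 4 were higher and 2 lower, and in Lamp1-depleted cells 5 and 6. Acp5, the tartrate-resistant acid phosphatase of osteoclasts and macrophages, had the largest ratio in unsorted cells, 4.17. Acp5 is also among the scar macrophage markers used above. Of the 9 tested pump genes in the list of 66, 2 were higher in BLM-treated unsorted cells and 3 lower, with a median of 0.34. The higher ones were Tcirg1, the a3 subunit of osteoclasts, at 2.16 and Atp6ap2 at 1.31, and the lower ones Atp6v1c2 at -2.08, Atp6v0e2 at -1.21 and Atp6v1g2 at -1.12, all named after their values were seen. In the sort, 10 of the 63 were at least 2-fold higher and 9 lower in sham-treated Lamp1-enriched cells, against 27.5% and 25.2% of all genes. In BLM-treated lungs 16 were higher and 8 lower, against 34.4% and 22.6%. Some of the 63 were further toward the Lamp1-enriched cells than any of the 50. Hyal2, a hyaluronidase anchored at the cell surface, was higher in Lamp1-enriched cells by 3.37 and 4.22, and the pump subunit Atp6v0e2 by 3.12 and 3.61. Acp5 went the other way, with log2 ratios of -4.05 in sham-treated and -1.19 in BLM-treated lungs.

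Genes with CACGTG in the promoter window did not stand above the others in unsorted cells. Their median BLM over sham log2 ratio was 1.28 for the 11 genes, which ranged from 0.34 for Mcoln1 to 3.63 for Ctsd. It was 1.67 for the 29 genes without the letters, from -0.31 for Ctso to 4.57 for Ctss. At least 2-fold higher were 6 of the 11 and 20 of the 29. Ctss and Ctsk, with the largest ratios, had windows without CACGTG. The genes with 2 matches each were Mcoln1, Atp6v0b, Ctsa, Gla and Ctsd. Their ratios spread from 0.34 and 0.72 over 1.52 and 2.23 to 3.63, in that order. Absence of the letters says only that they are not in this window.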

How the data were processed

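The authors deposited raw read counts per gene for the 6 libraries. The submitters' processing notes name Trimmomatic 0.36, STAR 2.5.2b, featureCounts of Subread 1.5.2 and the GRCm38 build, with no roles, and the strand setting is not given in the sources used here. From GENCODE M21 exons, 13 of the 50 genes overlap another gene.

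TMM factors, the quasi-likelihood test and its filter (filterByExpr) used edgeR 4.0.16 in R 4.3.3, with DESeq2 1.42.0 as an alternative. The test of the sort had 1 residual degree of freedom and an infinite prior, and the added test of treatment, with fraction as a block, had 2. Ratios used Python 3.11.15 and scipy 1.17.1, a prior count of 0.5 reads and Clopper-Pearson intervals at 95%. No p-value was computed between single libraries. Programs were tested on simulated data. The 50 genes, the lists and the tests were chosen with earlier results of these data known. Values in all 6 libraries were given for genes with a 4-fold ratio and at least 50 reads, and for Glb1, Lamp1, Tfeb, Tfe3 and Mitf. Of other lysosomal genes, the 3 with the largest ratios in a comparison could be named.

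Alternatives were DESeq2 size factors, total counts with and without Gm26917, a prior count of 2, at least 50 reads or 1 read, 4-fold, thinned counts, the DESeq2 Wald test, no expression filter and all 6 libraries. The marker Siglecf was not found under that name. The protein sequences were not used here.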

Additional observations from a re-analysis of the deposited data

Results flagged for a closer look

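Gm2a took opposite directions with BLM in the unsorted and the Lamp1-depleted cells, at log2 ratios of 2.37 and -1.32. The gap between the ratios was 3.68, and it was picked out because each pair of libraries moved past 2-fold in its own direction. With 1 library per condition, the difference was not tested. The Lamp1-depleted ratio compares 256 with 103 CPM, and its lower library is the one with 38.4% of reads on Gm26917.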

How the results depend on the processing

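The edgeR tests already hold treatment, or fraction, as a block. Counting 4-fold in place of 2-fold left, of 6 higher and 10 lower genes in the sham-treated sort, 2 and 5, and of 11 and 5 in the BLM-treated sort, 2 and 2. It left 19 of 33 higher in unsorted cells, 0 of the 1 lower in Lamp1-enriched cells, 1 of 4 higher and 0 of 5 lower in Lamp1-depleted cells, and, above both fractions, 0 of 2 in sham-treated and 8 of 23 in BLM-treated lungs. Total counts shift every ratio by 0.56 in the BLM-treated sort and by -0.72 in Lamp1-depleted cells. They gave 21 genes higher in that sort and, BLM over sham in Lamp1-depleted cells, 2 higher and 16 lower, where DESeq2 size factors gave 7 higher. For edgeR's 9 higher and 9 lower calls, total counts gave 2 and 2, and all 6 libraries gave 5 lower. The DESeq2 Wald test kept 9 higher and 8 lower of the calls, and so did all genes with at least 1 read. For treatment over the fractions, the 4 sorted libraries gave 1 lower call in place of 0. The count of genes higher in unsorted cells was 31 to 33 under the 3 other scalings and thinned counts. Depth did not limit the 50 genes except Ctse, whose lowest library held 30 reads. With 1 library per condition, no difference between mice was measured.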
